A study of Mus musculus with 29 samples.

Results

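The surface of an early B cell carries a set of proteins by which its stage is recognised, and the mRNA of 9 of them was followed here: Kit, Ly6d, Cd2, Spn (CD43), Cd24a, Enpep (BP-1), Bst1, Cd93 and Il2ra (CD25). The genes were chosen by name, and each of the 9 matched 1 entry among the 24732 entries of the tables aligned to the mm9 genome build and 1 among the 25588 entries of the tables aligned to mm10. RNA-seq of poly(A) RNA had been performed with pro-B cells sorted directly from mouse bone marrow on the C57BL/6 background. The mm9 tables hold 3 libraries of wild-type (Pax5+/+) pro-B cells and 2 of Pax5-/- cells, which lack the transcription factor Pax5 from the germ line. The mm10 tables hold 3 libraries of Pax5+/+ Meox2-cre pro-B cells, the control genotype of the study's Pax5-Jak2 leukemia model. These mice were 3 weeks old, expressed Cre broadly from the Meox2 locus, and contributed cells that the labels describe as pooled. The labels give their Pax5 genotype as +/+, and so does the study's text, whereas a sample list of the study gives +/-. Their Pax5 mRNA was at 394, 376 and 397 TPM, in tables scaled apart from those of the wild-type libraries. No age is given in the labels for the mm9 libraries, and nothing in the labels says whether the libraries of a genotype came from separate mice, so p-values measure the spread between libraries.

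The mm9 genotypes were sorted with different gates, and 3 of the 9 marker proteins were part of them. Per the study's methods, wild-type pro-B cells were gated, among other markers, as B220+ Kit+ cells without CD2, IgM or IgD, and Pax5-deficient progenitors as B220+ cells with Kit and Ly6D. Kit protein was therefore required in both genotypes, Ly6D in the Pax5-/- gate only, and absence of CD2 in the wild-type gate only. A difference in Ly6d or Cd2 mRNA may not be read as a finding between the genotypes, since the cells were selected on these proteins. The other 6 members, Spn, Cd24a, Enpep, Bst1, Cd93 and Il2ra, were in neither gate. The Meox2-cre pro-B cells were, per the study's text, gated among other markers as B220+ Kit+ cells without CD2 or IgM.

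These proteins are the landmarks of B cell development in the bone marrow. Ly6D appears on lymphoid progenitors as they turn towards the B cell lineage, Kit, CD43 and CD93 mark the pro-B stage, CD24 increases along the pathway, BP-1 and BST-1 appear in pro-B and large pre-B cells, and CD2 and CD25 are gained at the pre-B stage. Pax5 is the factor that commits progenitors to the B cell lineage, and without it development stops at an early stage at which the cells keep the potential for other lineages. The mRNA level is not the protein level by which cells are sorted and staged.

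The deposited values are TPM, transcript abundances, that is, reads divided by gene length and brought to 1 common sum for all libraries, so that levels can be compared between genes of one library. The values of a gene stood in whole-number ratios across the libraries of a table, and the smallest whole numbers with these ratios gave 16090303, 17374502 and 17809237 reads for the wild-type libraries, 13547786 and 23455627 for the Pax5-/- libraries and 17630812 to 18234588 for the Meox2-cre libraries. Pearson's r of log2(TPM + 0.5) across genes was 0.991 to 0.993 within the wild-type libraries, 0.996 within the Pax5-/- libraries and 0.968 to 0.974 between the genotypes. The labels were checked on Pax5 mRNA, which reached 342, 386 and 391 TPM in wild-type but 43.0 and 39.1 TPM in Pax5-/- cells. Ptprc, which encodes B220, was at 59.3 to 70.0 TPM in wild-type and at 72.1 to 74.0 TPM in Pax5-/- cells. The 8 genes of early B cell identity were above 1 TPM in every library and summed to 12200 to 15000 TPM in wild-type and 3620 to 4070 TPM in Pax5-/- cells.

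In Pax5-/- cells, the mRNAs of the surface enzymes Enpep and Bst1, whose proteins were in neither gate, were lower by more than 3-fold. Ly6d, whose protein was required in the Pax5-/- gate only, was higher by more than 3-fold. Cd2, selected against as protein in the wild-type gate only and scarce in both genotypes, was lower. The amount depends on the value added before taking logs. The differences of Ly6d and Cd2 describe the sorted populations. Cd24a was lower and Cd93 and Il2ra were higher by smaller amounts, while neither Kit nor Spn passed the test. The genotypes were compared with limma on log2(TPM + 0.5), where adding 0.5 shrinks the fold changes of scarce transcripts. Genes whose mean exceeded 1 TPM in either genotype were tested, 12066 in all. All 9 members passed this filter, Cd2 and Enpep through their wild-type level alone. At an adjusted p-value (Benjamini-Hochberg) below 0.05, 4 members were lower in Pax5-/- cells, namely Cd2, Cd24a, Enpep and Bst1, where 21.5% of all genes tested were lower. Another 3 were higher, Ly6d, Cd93 and Il2ra, where 15.6% of all genes were. Of the 6 members in neither gate, 3 were lower, 2 were higher and 1 did not pass. A call, for which the difference must also exceed 3-fold and the mean of a genotype 5 TPM, was made for 2 members as lower (Enpep and Bst1, against 3.15% of all genes) and for 1 as higher (Ly6d, against 2.71%). The higher call is that of the gene whose protein was required in the Pax5-/- gate, and among the 6 members in neither gate 2 were called lower and 0 higher. The libraries of the genotypes did not overlap for 7 members, nor did they for 63.4% of all genes. The median absolute log2 fold change was 1.71 over the members and 0.39 over all genes. The median over all genes was -0.12, and no longer so when the tables were rescaled by median ratios (-0.0031), so a difference of this size is within what the scaling decides. These are bulk libraries, in which fewer cells of a type and less RNA per cell cannot be told apart.

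**Figure D1:**
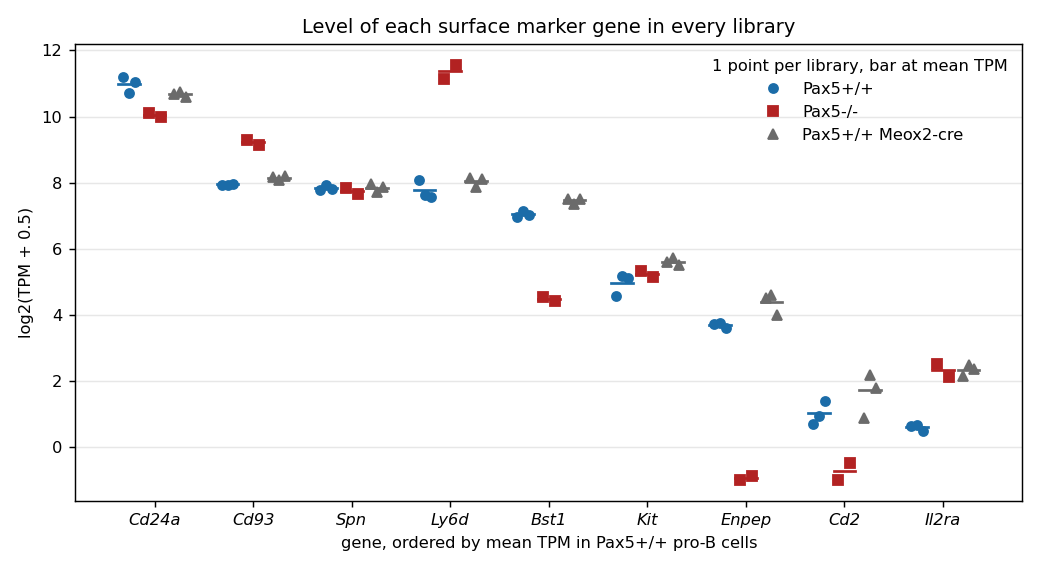
Level of each marker gene on the log2(TPM + 0.5) scale, 1 point per library and a bar at the mean TPM of the group, for 3 Pax5+/+, 2 Pax5-/- and 3 Pax5+/+ Meox2-cre libraries. The Pax5-/- squares lie above the wild-type circles for Ly6d, Cd93 and Il2ra and below them for Cd24a, Bst1, Enpep and Cd2, and the Meox2-cre triangles come from tables made with another genome build and aligner.

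Enpep encodes glutamyl aminopeptidase (BP-1), a membrane enzyme that cleaves acidic residues from the ends of peptides. It lies on the minus strand of mm9 chromosome 3 from 128972093 to 129035638. In wild-type pro-B cells it was expressed at 12.7, 13.0 and 11.6 TPM, and in Pax5-/- cells it was listed at 0 in one library and at 0.039 TPM in the other. The wild-type values rest on 423, 440 and 399 reads and the Pax5-/- values on 0 and 2 reads. Both Pax5-/- libraries are thus at the edge of detection, and 3 reads, taken as the limit that a count of 0 allows (the two-sided 95% Poisson limit is 3.69 reads), would be 0.106 TPM in the first of them. Per unit of depth, wild-type cells had 496 times the reads of Pax5-/- cells, with an exact 95% interval of 137 to 4100 that covers counting error only. The fitted log2 fold change of -4.64 (standard error, SE, 0.22, adjusted p = 1.1e-05) is a value that depends on the added 0.5 TPM. Enpep was called lower, and 99.6% of all genes had a smaller absolute log2 fold change.

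The 250 bases before the RefSeq start of Enpep are shown because it is the member that came closest to a loss of signal, beside those of Il2ra, the scarcest member in wild-type cells and one of those that were higher. In the first, capitals mark the single match to TTCNNNGAA, the letters of the motif bound by STAT factors, and in the second they mark matches to GGAA or its complement TTCC, the core letters of ETS factor motifs. The sequences are from the RefSeq promoter table on GRCm38.p6, which holds 4 of the 9 members (Kit, Spn, Enpep and Il2ra).
Enpep, chr3:129332750-129332999, minus strand: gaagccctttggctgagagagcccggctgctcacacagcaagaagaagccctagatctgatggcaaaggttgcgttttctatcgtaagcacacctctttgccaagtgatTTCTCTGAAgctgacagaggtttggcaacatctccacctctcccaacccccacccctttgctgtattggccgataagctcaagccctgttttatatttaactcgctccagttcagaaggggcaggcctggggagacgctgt
Il2ra, chr2:11642542-11642791, plus strand: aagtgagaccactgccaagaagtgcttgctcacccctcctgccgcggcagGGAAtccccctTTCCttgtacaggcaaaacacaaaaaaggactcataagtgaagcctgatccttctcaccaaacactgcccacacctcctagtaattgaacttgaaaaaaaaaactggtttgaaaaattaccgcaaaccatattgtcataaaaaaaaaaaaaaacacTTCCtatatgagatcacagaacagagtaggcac
The match in the Enpep sequence begins 141 bases before the start, and TTCNNNGAA was found in 7.02% of the 32851 promoter sequences of this length in the table. The Enpep sequence also holds 1 CANNTG (the E-box letters, in 66.2% of promoters), which begins 149 bases before the start and does not overlap the other match, and no GGAA or TTCC. The Il2ra sequence holds 3 GGAA or TTCC, letters found in 93.4% of promoters, no TTCNNNGAA and no CANNTG. Neither the Kit nor the Spn sequence holds TTCNNNGAA. Such matches, searched on both strands, are a description of the letters and not of binding.

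Bst1 encodes BST-1 (BP-3 or CD157), an enzyme of the ADP-ribosyl cyclase family that is anchored to the outer membrane by a lipid. It lies on mm9 chromosome 5 from 44210125 to 44234510. Its mRNA was at 123, 140 and 129 TPM in wild-type and at 22.6 and 20.9 TPM in Pax5-/- cells. The mean was thus 6.01 times as high in wild-type cells, and the gap between the groups was far wider than the spread within either, which was 8.64 TPM (SD, n = 3) and 1.22 TPM (SD, n = 2). Bst1 was called lower, with a log2 fold change of -2.56 (SE 0.11, adjusted p = 8.0e-06). Unlike Enpep, it remained well detected without Pax5, with 357 and 596 reads. The 2 genes whose values over the 5 libraries were most like those of Bst1 were Vpreb1, which encodes a part of the surrogate light chain of the pre-B cell receptor, and Irak3, with root mean square differences of 0.0447 and 0.0744 on the centred log2 scale among 9840 genes searched.

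Ly6d, which encodes a small lipid-anchored protein of the Ly6 family, was at 270, 195 and 190 TPM in wild-type and at 2258 and 3033 TPM in Pax5-/- cells. It lies on mm9 chromosome 15 from 74592486 to 74593997. The ratio of the mean values was 12.1, and the fitted difference 3.60 on the log2 scale (SE 0.19, adjusted p = 1.8e-05). Ly6D protein was required in the Pax5-/- gate, so this value describes the sorted populations. Wild-type cells, whose gate did not include Ly6D, nevertheless ranked Ly6d between place 691 and place 1037 of all entries by TPM, and Pax5-/- cells ranked it at places 43 and 33.

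Kit encodes the receptor tyrosine kinase for stem cell factor and was required on the cells of both genotypes. It was at 23.1, 35.3 and 34.0 TPM in wild-type and at 39.8 and 34.6 TPM in Pax5-/- cells, and the groups overlapped. The log2 fold change was 0.29, with a 95% confidence interval of -0.18 to 0.75 (adjusted p = 0.29), so that neither no difference nor an increase of somewhat over 1.5-fold lies outside the interval. The first wild-type library was the lowest for Kit, and it also had the lowest sum over the 7 of 8 listed myeloid markers that were found (45.9 TPM, against 252 and 192 TPM in the other wild-type libraries), the part of which in the Kit level was not tested.

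Cd2, which encodes an adhesion receptor of T, natural killer and B cells, was close to the limit of detection in both genotypes, at 1.11, 1.41 and 2.14 TPM in wild-type and at 0 and 0.215 TPM in Pax5-/- cells. These values rest on 10, 13 and 20 reads and on 0 and 3 reads. The wild-type cells had 11.3 times the reads per unit of depth (exact 95% interval 3.60 to 56.7, counting error only), with a log2 fold change of -1.75 (SE 0.34, adjusted p = 0.0066). The fitted value ranged from -3.37 to -1.19 over the alternatives, so that Cd2 came before or after Bst1 in size. Wild-type cells had been selected against CD2 protein, whereas the Pax5-/- gate did not use it. With its mean below 5 TPM in both genotypes, Cd2 could not be called, and without the first Pax5-/- library its adjusted p was 0.060.

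Il2ra encodes the alpha chain of the interleukin-2 receptor, known on pre-B cells as CD25. It was the scarcest member in wild-type pro-B cells, at 1.06, 1.09 and 0.912 TPM, and was at 5.22 and 3.83 TPM in Pax5-/- cells. The read numbers of 37, 39 and 33 against 156 and 207 place the groups well apart, and the ratio of reads per unit of depth was 4.24 (exact 95% interval 3.41 to 5.30, counting error only). On the log2 scale Il2ra was 1.71 higher (SE 0.25, adjusted p = 0.0020). Its mean of 4.52 TPM in Pax5-/- cells lay below the 5 TPM that a call requires, and with the first Pax5-/- library alone, at 5.22 TPM, it was called higher. Cd2 and Il2ra, both gained by pre-B cells and both scarce, differed in opposite directions. Il2ra stood above 23.9% to 24.9% of the detected entries in wild-type and above 36.9% and 37.0% in Pax5-/- libraries. Cd2 stood above 25.4% to 30.8% of them in wild-type libraries. In the Pax5-/- library that held reads of it, Cd2 stood above 15.7%. Wild-type cells had been selected against CD2 protein, so the direction of Cd2 describes the sorted populations. T cells also express Il2ra: of the T cell markers, Cd3e was listed at 0 in both Pax5-/- libraries and was at 0.088 to 0.432 TPM in wild-type cells, and Cd4 was at 3.97 and 5.88 TPM in Pax5-/- and at 0.368 to 0.712 TPM in wild-type cells. The sum of the 7 T cell markers, most of which was Lat, was 48.5 to 49.8 TPM in Pax5-/- and 21.2 to 55.8 TPM in wild-type cells, and their part in the Il2ra level was not tested.

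**Figure D2:**
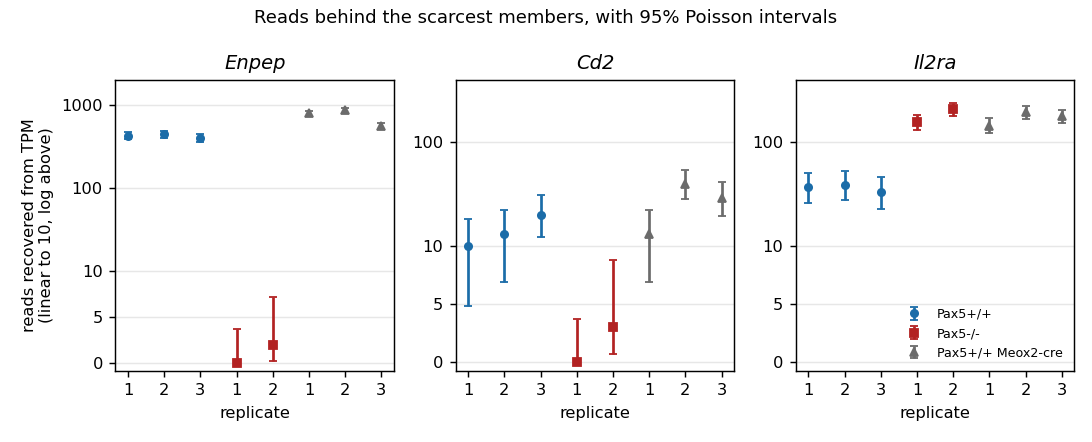
Reads recovered from the TPM values of Enpep, Cd2 and Il2ra in each library, with 95% Poisson intervals for counting error, on an axis that is linear up to 10 and logarithmic above. The Pax5-/- libraries hold 0 and 2 reads of Enpep and 0 and 3 of Cd2, and 156 and 207 reads of Il2ra against 33 to 39 in wild-type cells.

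Cd24a encodes CD24, a short and heavily glycosylated protein with a lipid anchor, and was the most abundant member in wild-type cells. It was at 2365, 1664 and 2099 TPM there and at 1107 and 1013 TPM in Pax5-/- cells. The lowest wild-type library was thus above both Pax5-/- libraries, and the ratio of the means was 1.93. On the log2 scale Cd24a fell by 0.93 (SE 0.16, adjusted p = 0.0035), under the 3-fold that a call requires. The adjusted p was 0.051 without the first and 0.079 without the second Pax5-/- library. The mouse genome holds copies that resemble Cd24a. Per the study's methods, reads of the mm9 libraries were counted with featureCounts at its default settings, and reads shared with such copies are not mentioned there.

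Spn encodes CD43, a large mucin-like protein by which pro-B cells are told from later stages. It was at 221, 242 and 223 TPM in wild-type and at 227 and 203 TPM in Pax5-/- cells, and the groups overlapped. The log2 fold change was -0.09, with a 95% confidence interval of -0.32 to 0.14 (adjusted p = 0.51), and it was 0.027 relative to the median of all genes. The interval covers differences of less than 1.5-fold in either direction. In wild-type cells Spn was among the members with the most even levels, with an SD of 11.6 TPM (n = 3). In Pax5-/- cells its SD was 17.3 TPM (n = 2), and relative to the mean Bst1, Cd24a and Cd93 varied less there.

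Cd93 encodes the C-type lectin-like receptor that is recognised by the AA4.1 antibody on early B cells. It was at 244, 243 and 250 TPM in wild-type and at 628 and 563 TPM in Pax5-/- cells. The SD over the wild-type libraries was 3.63 TPM (n = 3), and the mean was 2.43 times as high in Pax5-/- cells. The log2 fold change was 1.27 (SE 0.094, adjusted p = 8.0e-05), short of 3-fold, and at a threshold of 2-fold Cd93 was called. Myeloid cells also express Cd93. The sum of the myeloid markers ranged from 45.9 to 252 TPM in the wild-type and from 55.4 to 83.7 TPM in the Pax5-/- libraries. This list did not move as one. Mpo was at 11.1 to 34.5 TPM in wild-type and at 37.8 and 42.1 TPM in Pax5-/- cells. S100a8, S100a9, Elane, Lyz2, Itgam and Csf1r had lower means in Pax5-/- cells. The part of myeloid cells in the Cd93 level was not tested.

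**Figure D3:**
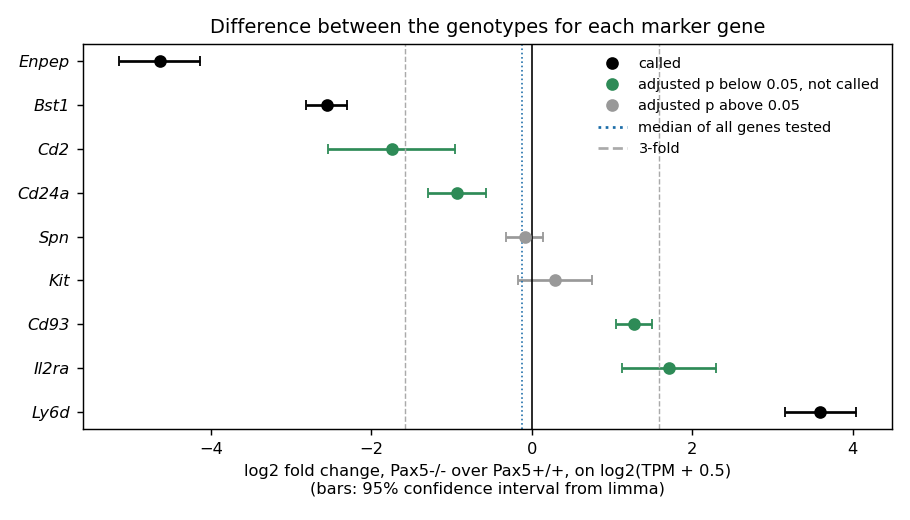
Log2 fold change of each member between 2 Pax5-/- and 3 Pax5+/+ libraries, with the 95% confidence interval from limma. Enpep, Bst1 and Ly6d were called, Cd2, Cd24a, Cd93 and Il2ra passed the adjusted p-value only, and the intervals of Spn and Kit include 0.

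The order of the members by mean TPM, which is per length, differed between the sorted cells of the genotypes. In wild-type cells it was Cd24a (2043 TPM), Cd93 (246 TPM), Spn (229 TPM), Ly6d (219 TPM), Bst1 (131 TPM), Kit (30.8 TPM), Enpep (12.4 TPM), Cd2 (1.55 TPM) and Il2ra (1.02 TPM), and of these neighbours Spn and Ly6d overlapped. In Pax5-/- cells Ly6d came first (2646 TPM), before Cd24a (1060 TPM), Cd93 (596 TPM), Spn (215 TPM), Kit (37.2 TPM), Bst1 (21.8 TPM), Il2ra (4.52 TPM), Cd2 (0.107 TPM) and Enpep (0.0195 TPM), and of these Cd2 and Enpep overlapped. Cd24a made up 65.6% to 72.5% of the summed TPM of the 9 members in the wild-type libraries, and Ly6d made up 52.7% and 62.3% of it in the Pax5-/- libraries. Ly6D protein was required in the Pax5-/- gate only, and absence of CD2 in the wild-type gate only. The places of Ly6d and Cd2 and these shares therefore describe the sorted populations. Bst1 was 3.81 to 5.31 times as high as Kit in wild-type and 0.568 and 0.605 times as high in Pax5-/- cells. The ratio of Cd93 to Spn, the pair of pro-B markers at the most similar levels in wild-type cells, was 1.01 to 1.12 there and 2.77 and 2.78 in Pax5-/- cells.

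In the Pax5+/+ Meox2-cre libraries all 9 members were detected in every library. These libraries were aligned and scaled separately from the others, so the values are given without a test. Cd24a was at 1647, 1710 and 1556 TPM, Cd93 at 286, 270 and 295 TPM, and Ly6d at 282, 232 and 273 TPM. Spn was at 246, 211 and 231 TPM, Bst1 at 181, 164 and 182 TPM, and Kit at 48.4, 52.0 and 44.9 TPM. The ranges of Cd93, Ly6d and Spn overlapped from one neighbour to the next, and Bst1 and Kit stood below them. Enpep was at 22.2, 23.6 and 15.3 TPM on 785, 860 and 557 reads, and its library of replicate 3 was the lowest beyond counting error, since the 95% Poisson interval of 511.7 to 605.2 reads lies below those of the others. Il2ra was at 3.90, 5.09 and 4.66 TPM, on 145 to 195 reads. Cd2 was at 1.35, 4.04 and 2.94 TPM, on 13, 40 and 29 reads, and its first and second library do not overlap in their 95% intervals of 6.92 to 22.2 and 28.6 to 54.5 reads. Cd2 and Il2ra, the markers gained at the pre-B stage, were the lowest in the order and overlapped. These cells had been selected for Kit and against CD2 protein, so the levels of Kit and Cd2 describe the sorted cells. The level of Il2ra here (mean 4.55 TPM) stood beside 1.02 TPM in the wild-type libraries of the mm9 tables. That of the kappa light chain gene Igkc stood at 239.8 to 299.5 TPM beside 65.4 to 110 TPM. Markers of pre-B and mature B cells did not move as one. Ms4a1 was at 3.27 to 3.68 TPM here beside 3.92 to 6.40 TPM there. Ighd was at 37.5 to 40.3 TPM beside 31.5 to 66.3 TPM. The part of such cells in the Il2ra level was not tested. Myeloid markers summed to 442 to 1220 TPM in the Meox2-cre libraries, led by the neutrophil gene S100a9 at 171 to 568 TPM, and their part in the levels of Bst1 and Cd93, which neutrophils and monocytes can express, was not tested.

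Several members have a partner or a close relative, and a list of 21 such genes was examined in the mm9 tables. Of these, 16 were tested, 4 were lower and 8 were higher at an adjusted p below 0.05, and 3 were called lower and 4 higher, where 21.5% and 15.6% of all genes passed the test and 3.15% and 2.71% were called. Their median log2 fold change was 0.52, against -0.12 over all genes. Cd38 and Ly6c1 passed the filter through their wild-type level alone, and Cd248, Ly6k and Il2rb through their Pax5-/- level alone. The fitted log2 fold changes of these genes depend on the added 0.5 TPM. By the ratio of mean TPM, Cd38 was 18.5 times as high in wild-type and Cd248 36.3 times as high in Pax5-/- cells. Siglecg, a receptor that binds CD24, was at 95.4, 98.9 and 142 TPM in wild-type and at 2.39 and 2.57 TPM in Pax5-/- cells (log2 fold change -5.22, SE 0.19, adjusted p = 4.6e-06). Cd38, the relative of Bst1 that lies 25537 bases from it on mm9 chromosome 5, was at 7.53, 7.17 and 9.23 TPM and at 0.396 and 0.465 TPM (log2 fold change -3.18, adjusted p = 7.6e-05). Both ADP-ribosyl cyclase genes were thus lower, and Cd38 was at 0.0512 to 0.0714 times the level of Bst1 in wild-type and at 0.0175 and 0.0222 times in Pax5-/- cells.

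The relatives of Cd93 differed in opposite directions. Thbd, which encodes thrombomodulin, was at 30.5 to 40.3 TPM in wild-type and at 2.4 to 2.87 TPM in Pax5-/- cells (log2 fold change -3.51, adjusted p = 1.8e-05), whereas Cd248 was at 0.0955 to 0.145 TPM and at 3.35 to 4.86 TPM (log2 fold change 2.89, adjusted p = 3.2e-04). Flt3, the receptor tyrosine kinase of the same family as Kit, was at 11.1 to 18.1 TPM in wild-type and at 327 and 388 TPM in Pax5-/- cells (log2 fold change 4.55, SE 0.20, adjusted p = 9.3e-06). Kit mRNA did not pass the test in these cells, but Kit protein was required in both gates. Csf1r, a further receptor of this family, did not pass the test (adjusted p = 0.20), and Kitl, the ligand of Kit, was at or below 0.067 TPM in all 5 libraries and below the filter. Of the other chains of the interleukin-2 receptor, Il2rg, which also serves the interleukin-7 receptor, was higher in Pax5-/- cells by 0.68 on the log2 scale (adjusted p = 0.0022), and Il2rb, at 0.282 to 1.70 TPM, did not pass the test (adjusted p = 0.22).

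Cd48, which encodes the ligand of CD2 in the mouse, was at 76.3 to 89.1 TPM in wild-type and at 67.3 to 73.7 TPM in Pax5-/- cells and did not pass the test (log2 fold change -0.26, adjusted p = 0.12). Cd244, another receptor for it, was at 2.78 to 4.53 TPM and at 7.96 to 8.4 TPM (log2 fold change 1.18, adjusted p = 0.0092). In the Ly6 family, Ly6a was at 5.01 to 9.79 TPM in wild-type and at 31.2 to 32.8 TPM in Pax5-/- cells (log2 fold change 2.08, adjusted p = 9.2e-04), and Ly6k was at 0.317 to 1.13 TPM and at 7.0 to 9.77 TPM (log2 fold change 2.81, adjusted p = 0.0010). Ly6e, the most abundant of them, was higher by 0.39 on the log2 scale (adjusted p = 0.044), Ly6c1 was lower at under 2 TPM in all 5 libraries (adjusted p = 0.025), and Ly6c2 did not pass the test (adjusted p = 0.86). Ly6d, whose protein was required in the Pax5-/- gate, is set apart here. Among its relatives Ly6a, Ly6k and Ly6e were higher and Ly6c1 was lower, so the family did not move as one.

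**Figure D4:**
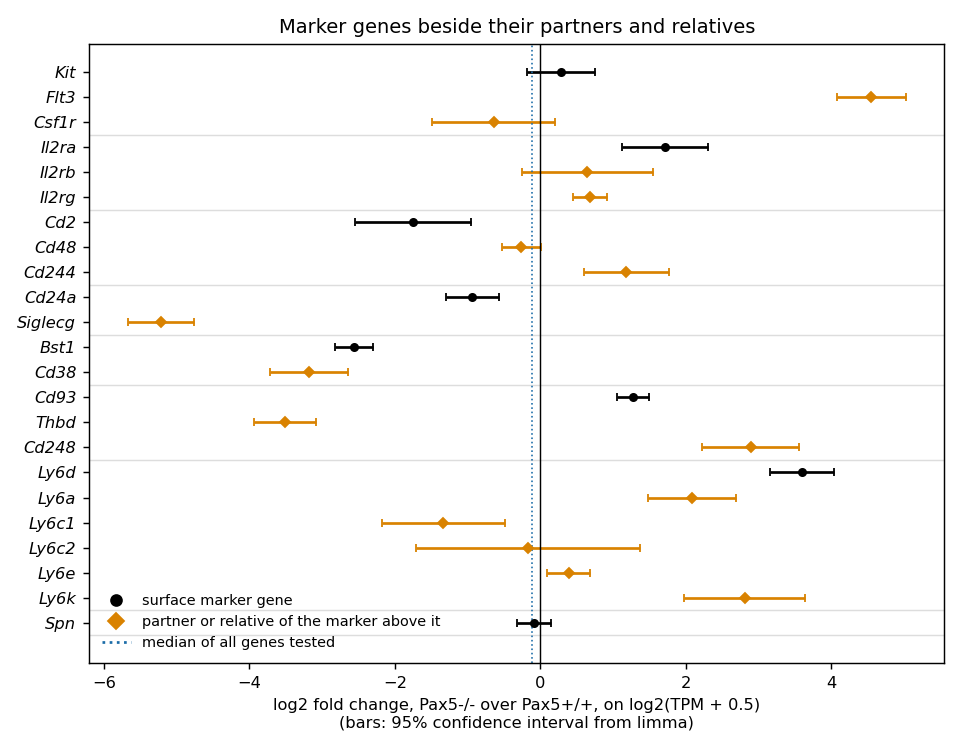
Log2 fold change between Pax5-/- and Pax5+/+ libraries with the 95% confidence interval from limma, for the members (black circles) and, under each, its tested partners or relatives (orange diamonds). Bst1 and Cd38 both lie left of 0, Ly6d, Ly6a and Ly6k right of it, and Thbd and Cd248 lie on opposite sides of Cd93.

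A further list of 20 surface antigens of B cell stages gives the setting of the 9 members. Of these, 18 were tested, 9 were lower and 3 higher at an adjusted p below 0.05, and 6 were called lower and 1 higher, against the same shares of all genes, so that the 3 higher ones are close to the 15.6% of the background. On the log2(TPM + 0.5) scale the largest decreases were those of Cd72 (-6.37), a coreceptor of B cells, of Cd79a (-3.00), a signalling chain of the B cell receptor, and of Cd40 (-2.93). This order depends on the added 0.5 TPM, since by the ratio of mean TPM Cd40 (26.6) and Ms4a1 (17.2), which rest on 2 and 4 and on 4 and 7 reads in Pax5-/- cells, exceeded Cd79a (8.08). Cd40 and Ms4a1 passed the filter through their wild-type level alone. Cd79b, the other signalling chain of the B cell receptor, was lower by less (log2 fold change -0.60, adjusted p = 0.0069) and was not called. Cd44, an adhesion receptor, fell from 25.7 to 31.7 TPM in wild-type to 3.72 to 4.45 TPM in Pax5-/- cells (adjusted p = 4.2e-05). The largest increase was that of Cd27, a receptor of the TNF receptor family (log2 fold change 3.24, adjusted p = 8.2e-05). Il7r, the receptor chain on which early B cells depend, did not pass the test (log2 fold change 0.48, adjusted p = 0.11). The entries of Cd72, Cd27, Csf1r and Bfsp2 carry the letters OVL, whose meaning is not given in the sources used here.

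Over the 5 mm9 libraries, the genes most like the other members were listed by the root mean square difference of their centred log2(TPM + 0.5) values, which for 3 and 2 libraries is a description. The closest were Map3k5 for Kit (0.0297), Lrrc8d for Spn (0.0130), Prkar2a for Cd93 (0.0404), Hmgb2 for Cd24a (0.0855) and Bfsp2 for Enpep (0.108). With 0 and 2 reads of Enpep in Pax5-/- cells, its profile on this scale, and so its nearest genes, are set by the added 0.5 TPM. The second were Zfp629 for Kit, Nab1 for Spn, Nsg2 for Cd93, Anapc15 for Cd24a, Cplx2 for Enpep and Ptprn for Ly6d (0.134). Bfsp2 was at 482 to 586 TPM in wild-type and at 19.5 to 25.6 TPM in Pax5-/- cells. Cd2 and Il2ra were below 5 TPM and were not searched.

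Markers of other cell types were detected in the sorted cells. Erythroid markers summed to 60.3 to 158 TPM in wild-type and 30.1 to 37.7 TPM in Pax5-/- cells, with the globin gene Hbb-b1 at 0 in all 5 libraries. Natural killer markers summed to 3.48 to 11 TPM and 5.55 to 8.29 TPM, and stromal markers to 20.3 to 52.4 TPM and 11.2 to 39.5 TPM. The sum of the markers of plasmacytoid dendritic cells, some of which arise from progenitors with Ly6D, was 392 to 454 TPM in wild-type and 214 to 304 TPM in Pax5-/- cells, most of it Irf8 and Bst2, while their defining marker Siglech was at 0.106 to 1.12 TPM and at 1.79 and 9.06 TPM. The Pax5-/- library with more Siglech was also the one with more Ly6d, and the part of these cells in the Ly6d level was not tested. The markers of pre-B and mature B cells, a list that holds Cd2 and Il2ra themselves, summed to 107 to 170 TPM in wild-type and 50.1 to 59.4 TPM in Pax5-/- cells, most of it Igkc.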

How the data were processed

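Poly(A) RNA-seq of sorted bone marrow cells was used. Per the study's methods, the authors discarded reads of ribosomal RNA, aligned the others to mm9 with TopHat 1.4.1a (Pax5+/+ and Pax5-/-) or to mm10 with STAR 2.4.2a (Meox2-cre), counted them per gene with featureCounts 1.5.0 and deposited TPM values. Groups follow the labels, and the replicate numbers, given in sample order, only name libraries.

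The test was that of limma 3.58.1 (R 4.3.3) with a trended prior, on log2(TPM + 0.5). Genes with a mean above 1 TPM in a genotype were tested and p-values adjusted by Benjamini-Hochberg. Thresholds of calls follow the study's methods, and no call was made for antigen receptor genes. Reads were recovered as the smallest whole numbers in the ratio of a gene's TPM across libraries (tolerance 2e-04), for 15960 of 15971 genes detected in several mm9 libraries. On simulated reads, 96.3% of 12661 genes with 30 or more reads over the libraries were recovered exactly. A gene whose reads share a common factor comes out too low, so no reads are given for Cd24a in the Meox2-cre libraries. Intervals for counts are 95% and cover counting error only.

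The members and lists were chosen with earlier results of these data known. Named beside the 9 members were genes of the gates, up to 6 of each further list (those of the largest change past the test, and partners or relatives of a member), and the 2 genes most like each member above 5 TPM. A gene of the gates and a gene like Ly6d are not reported here. Further genes of the partner and marker lists were named after their values were seen. Locations are from GENCODE (mm9). Tables and figures were made with Python 3.11.15, numpy 2.4.6, pandas 2.3.3, scipy 1.17.1 and matplotlib 3.10.9. ChIP-seq, Pax5 Jak2 and tumor samples were not analysed here.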

Additional observations from a re-analysis of the deposited data

How the results depend on the processing

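Of 236 values recomputed under alternatives, 227 kept their direction and side of the threshold or moved by less than the limits set. The alternatives were pseudocounts of 0.1 and 1, no filter or one at 5 TPM, median-ratio and quantile scaling, removal of immunoglobulin and T cell receptor genes, eBayes without trend or robust, leaving out each library, other thresholds and, chosen after seeing the data, limma voom on the recovered reads. The log2 fold change of Spn, which did not pass the test, changed sign to 0.026 by median ratios, 0.0022 by quantile normalization and 0.022 by voom. The number of members called higher rose from 1 to 2 with a 2-fold threshold, and ranged from 1 to 2 with a library left out (Il2ra was added without the second Pax5-/- library). Members lower at an adjusted p below 0.05 ranged from 2 to 4 with a library left out, with 2 remaining without the first Pax5-/- library (Cd2 and Cd24a lost) and 3 without the second (Cd24a lost). With 1 Pax5-/- library left, its spread is assumed to be that of wild-type libraries. Enpep, Bst1 and Ly6d were called under each of the alternatives, with log2 fold changes of -8.52 to -3.72, -2.61 to -2.44 and 3.39 to 3.81. The first of these ranges reflects the value added to the near-zero Pax5-/- level. That of Cd2, scarce in both genotypes, ranged from -3.37 to -1.19 likewise. At a filter of 5 TPM, Cd2 and Il2ra were not tested. The order of the members was the same by median TPM in each group, and the Meox2-cre means moved by less than 1 SD. No paired analysis was possible because replicates are not numbered in the labels. Depth limits Cd2 in both genotypes and Enpep in Pax5-/- cells, which rest on 20 or fewer reads per library.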
